A study of Mus musculus with 24 samples.

Results

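The transcripts described here are those of the mouse mitochondrial genome, taken as the rows of the count table whose symbol starts with mt-. That rule found 2 of the 40840 rows, mt-Rnr1 (12S rRNA of the small mitochondrial ribosomal subunit) and mt-Rnr2 (16S rRNA of the large subunit). The table also holds 22 rows under RefSeq symbols that start with Trn, which are the tRNA genes of the same genome. They were not caught by the rule and are given as companion rows, apart from the members. For the 13 protein-coding genes of the mitochondrial genome no row was found under mt- or under their RefSeq symbols. They were not analysed here, and no row of theirs was identified in the totals behind the shares and ranks below.

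The tissue was cardiac apex, taken on day 3 after surgery from WT mice of strain C57/Bl6J. The 4 groups of 6 libraries were sham surgery in normoxia, transverse aortic constriction (TAC) in normoxia, sham surgery in hypoxia, and TAC in hypoxia. TAC narrows the aorta with a suture tied around a 25-gauge needle, so that the left ventricle works against a high pressure. The labels give no oxygen level, no duration of hypoxia, and no age, sex or harvest time. The samples numbered 1 to 6 in a group were taken as separate mice, which the labels do not state outright. If they were not, the p-values measure only the spread between libraries.

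The mitochondrial genome is transcribed from both strands as long precursors that are cut into rRNAs, tRNAs and mRNAs. Both rRNAs lie at the start of the heavy-strand transcript, each flanked by tRNAs that mark where the cuts fall, and together they form the RNA core of the mitochondrial ribosome. That ribosome makes only subunits of the respiratory chain and the ATP synthase, and cardiomyocytes are packed with mitochondria. The transcription machinery, the cutting enzymes and all the proteins of this ribosome are encoded in the nucleus.

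Along the genome the first 5 genes run TrnF, mt-Rnr1, TrnV, mt-Rnr2 and TrnL1. The sequences of the members are shown around 1 feature each, and those of 3 tRNA rows because the results return to them. All are from GENCODE M21 (build GRCm38), mitochondrial chromosome, written 5′ to 3′ as DNA. The stretch of mt-Rnr1 (955 bases) is its last 60 bases. Capitals mark the GGAA loop of its terminal hairpin, whose arms pair in 8 of 8 positions, and the adenines of this loop are known to be dimethylated by the enzyme TFB1M.
mt-Rnr1: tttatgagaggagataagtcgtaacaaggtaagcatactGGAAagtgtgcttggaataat
The stretch of mt-Rnr2 (1582 bases) surrounds its longest run of A, 7 bases in capitals. The library kit is known to prime cDNA with oligo(dT), and the longest run in mt-Rnr1 is 5. Whether such runs bear on the counts was not tested.
mt-Rnr2: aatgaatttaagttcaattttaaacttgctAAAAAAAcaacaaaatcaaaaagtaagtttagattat
In the tRNA genes capitals mark the anticodon. TrnL1 and TrnL2 carry leucine and TrnQ carries glutamine.
TrnL1: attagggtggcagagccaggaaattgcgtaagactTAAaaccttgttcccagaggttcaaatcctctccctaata
TrnL2: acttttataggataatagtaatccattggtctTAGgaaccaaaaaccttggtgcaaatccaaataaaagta
TrnQ: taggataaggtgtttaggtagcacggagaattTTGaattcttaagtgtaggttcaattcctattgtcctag
The rRNAs are alike in base composition, with 37.8% A in mt-Rnr1 and 38.2% in mt-Rnr2. In stretches of 31 bases mt-Rnr1 matched no other transcript, and mt-Rnr2 shared 102 bases (6.45%) with 1 other gene, Gm20594, whose row held 2 to 15 counts per library.

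The libraries held 10136915 to 15058159 counts. Values are CPM (a library's counts scaled to a common total) after TMM, a scaling factor that ran from 0.784 to 1.05 and was under 0.95 in 3 libraries, normoxia TAC 4 and 5 and hypoxia TAC 6. Log2 changes are given with their standard error, and called means that edgeR's quasi-likelihood test gave an adjusted p (Benjamini-Hochberg over 15027 genes) under 0.05. The library numbers in the labels put each of the 4 groups in its own block, with both hypoxia groups before both normoxia groups. If they mark an order of processing, that order cannot be told apart from the oxygen condition. Nor can it be told apart from TAC against sham within an oxygen condition. In bulk tissue, fewer cells of a type and less RNA per cell cannot be told apart.

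Both rRNAs were among the most counted rows of every heart, with mt-Rnr1 ranked 2 to 11 and mt-Rnr2 ranked 1 to 5 by count. They were higher after TAC than after sham surgery in normoxia, with mt-Rnr1 up 1.55-fold and mt-Rnr2 up 1.58-fold. In hypoxia neither passed the test for TAC against sham. After sham surgery, oxygen made no difference that passed the test. After TAC, both were lower in hypoxia than in normoxia.

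For mt-Rnr1 the lowest, median and highest CPM were 7019, 8585 and 10404 in normoxia sham libraries. After TAC in normoxia they were 10550, 13112 and 17200. In hypoxia sham libraries they were 7815, 8904 and 10165, and in hypoxia TAC libraries 6179, 8903 and 11229. All 6 normoxia TAC libraries lay above every normoxia sham library, while 5 of the 6 hypoxia TAC libraries lay below every normoxia TAC library. The group means were 8589 ± 1372, 13304 ± 2798, 8895 ± 839 and 8776 ± 1641 CPM (SD, n = 6), in the order normoxia sham, normoxia TAC, hypoxia sham and hypoxia TAC. By mean, normoxia TAC was highest, and the means of the other 3 groups lay closer to each other than their SD.

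For mt-Rnr2 the lowest, median and highest CPM were 22075, 23215 and 25860 in normoxia sham libraries. After TAC in normoxia they were 30363, 34342 and 51024. In hypoxia sham libraries they were 19273, 23834 and 25722, and in hypoxia TAC libraries 13650, 20167 and 27074. Every normoxia TAC library lay above every library of the other 3 groups. The means were 23462 ± 1457, 37186 ± 8083, 23034 ± 2478 and 20715 ± 5407 CPM (SD, n = 6) in the same order. The 2 sham groups differed by less than their spread, and the hypoxia TAC group reached both below and above them.

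**Figure D1:**
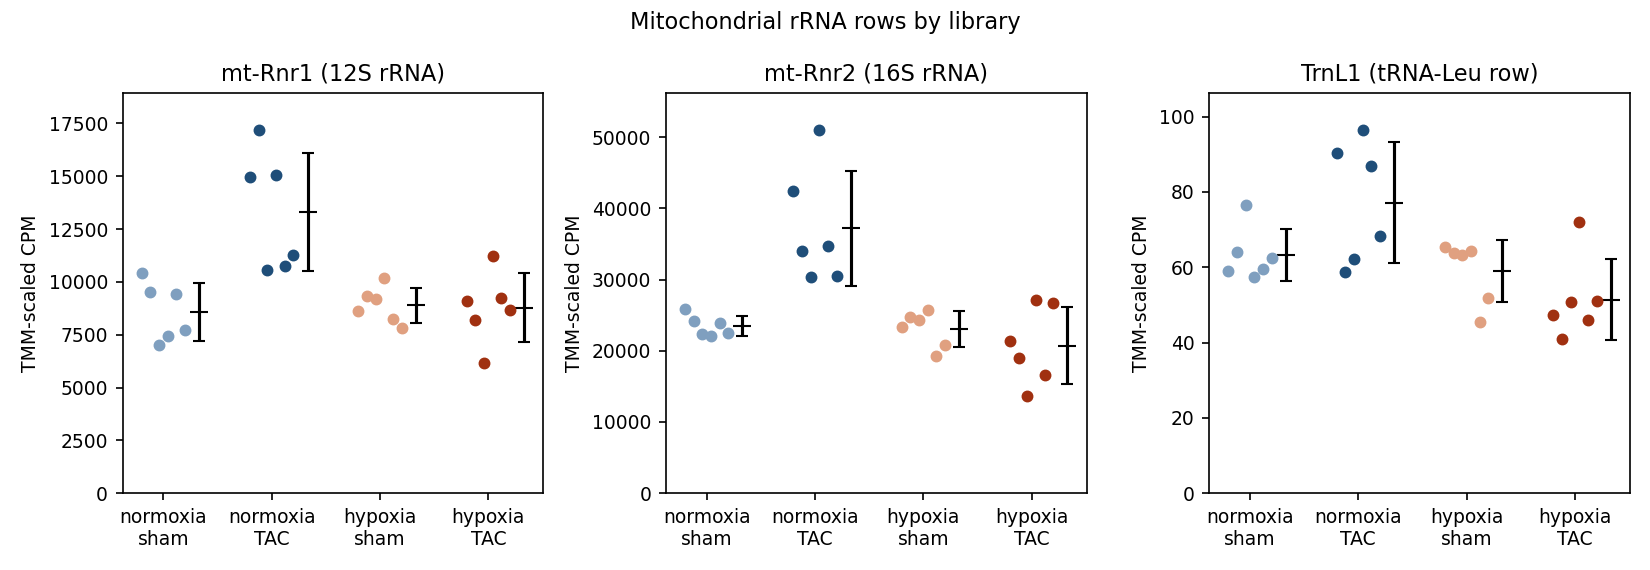
TMM-scaled CPM of mt-Rnr1, mt-Rnr2 and the companion row TrnL1 in each library, by group, with each point a library and the bar beside it the mean and SD of 6. The normoxia TAC libraries sit at 30363 CPM or more of mt-Rnr2, and the highest library of any other group is at 27074 CPM.

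As a share of all counts, mt-Rnr1 made up 0.878 ± 0.147% in normoxia sham and 1.25 ± 0.298% in normoxia TAC libraries. It made up 0.918 ± 0.0865% in hypoxia sham and 0.883 ± 0.178% in hypoxia TAC libraries. The shares of mt-Rnr2 were 2.40 ± 0.165%, 3.46 ± 0.534%, 2.38 ± 0.250% and 2.07 ± 0.478% (SD, n = 6) in the order normoxia sham, normoxia TAC, hypoxia sham and hypoxia TAC. Summed, both rRNAs were 1.44 percentage points higher with TAC in normoxia, against a pooled SD of 0.560. With TAC in hypoxia the difference was -0.344 points (pooled SD 0.494), and between the sham groups it was 0.0205 points (pooled SD 0.319). After TAC, hypoxia libraries were lower by a difference of -1.77 points (pooled SD 0.675). The lowest normoxia TAC library was at 3.98% and the highest hypoxia TAC library at 3.92%, so the raw shares of these groups came close without overlapping. The widest exact 95% binomial (Clopper-Pearson) interval of a library's summed share was 0.0276 points, which covers counting error only and lies far inside the spread between libraries.

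In normoxia, mt-Rnr1 rose with TAC by 0.63 ± 0.14 on the log2 scale (edgeR adjusted p = 0.00266) and mt-Rnr2 by 0.66 ± 0.15 (edgeR adjusted p = 0.00270). In this comparison 27.4% of all tested genes were called, 16.8% higher and 10.6% lower, so a call alone sets neither member apart. Groups that did not overlap in the higher direction were rarer, at 5.04% of all genes (3.86% in the lower direction), and both members were among these. The median change of all genes was 0.01. With library totals in place of TMM that median moved to -0.11, and mt-Rnr1 and mt-Rnr2 were higher by 0.51 and 0.53, both still called. Without the 3 libraries of low TMM factor (a check chosen after seeing the data) both were called, at 0.64 and 0.54.

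In hypoxia, mt-Rnr1 changed with TAC by -0.02 ± 0.14 (edgeR adjusted p = 0.942) and mt-Rnr2 by -0.15 ± 0.15 (edgeR adjusted p = 0.514). Neither member was called in this comparison, where 11.1% of all genes were (6.46% higher and 4.68% lower), and DESeq2 called neither. Neither had an unadjusted p under 0.05 (0.890 and 0.311). The TAC and sham libraries overlapped for both, and for mt-Rnr2 2 hypoxia TAC libraries lay above and 3 below the whole range of hypoxia sham.

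After sham surgery, hypoxia against normoxia gave 0.05 ± 0.14 for mt-Rnr1 (edgeR adjusted p = 0.972) and -0.03 ± 0.15 for mt-Rnr2 (edgeR adjusted p = 0.990). Both groups overlapped for both members. No member was called here by edgeR or DESeq2, with unadjusted p-values of 0.721 and 0.859, and 0.166% of all genes were called (0.0865% higher and 0.0799% lower). The fit of the 12 sham libraries alone called 1658 genes and neither rRNA.

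After TAC, mt-Rnr1 was lower in hypoxia than in normoxia by a log2 change of -0.60 ± 0.14 (edgeR adjusted p = 0.0103), a level 1.52-fold lower. The change of mt-Rnr2 was -0.84 ± 0.15 (edgeR adjusted p = 0.00227), a level 1.80-fold lower. In this comparison 11.1% of all genes were called, 4.66% higher and 6.41% lower. Groups that did not overlap made up 0.858% of genes in the lower and 0.599% in the higher direction, and mt-Rnr2 was one of these while mt-Rnr1 was not. The calls rest on the spread estimated from all 4 groups. In a fit of the 12 TAC libraries alone the changes were -0.58 and -0.82, the adjusted p-values were 0.154 and 0.125, and edgeR called 0 of 14267 genes (2364 at an unadjusted p under 0.05), while DESeq2 on all 24 libraries called 2244 genes and both rRNAs.

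The difference between both TAC responses was tested as an interaction. For mt-Rnr2 the response in hypoxia was smaller by a log2 difference of -0.82 ± 0.21 (edgeR adjusted p = 0.0434), in a comparison where 2.05% of all genes were called, 1.12% higher and 0.925% lower. For mt-Rnr1 the difference was -0.65 ± 0.20 and did not pass (edgeR adjusted p = 0.0716). The call of mt-Rnr2 lay close to the threshold and was lost in 15 of the 24 fits that leave out 1 library, with an adjusted p of 0.0176 to 0.0849. Those 15 were all 6 normoxia sham libraries, normoxia TAC 4, hypoxia sham 1, 2, 3, 4 and 6, and hypoxia TAC 1, 3 and 5, and the log2 difference ran from -0.91 to -0.70 over the 24. For mt-Rnr1 the difference was called without normoxia TAC 5 (adjusted p = 0.0466) and without hypoxia TAC 4 (adjusted p = 0.0365). That mt-Rnr2 passed and mt-Rnr1 did not is no test of a difference between them.

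**Figure D2:**
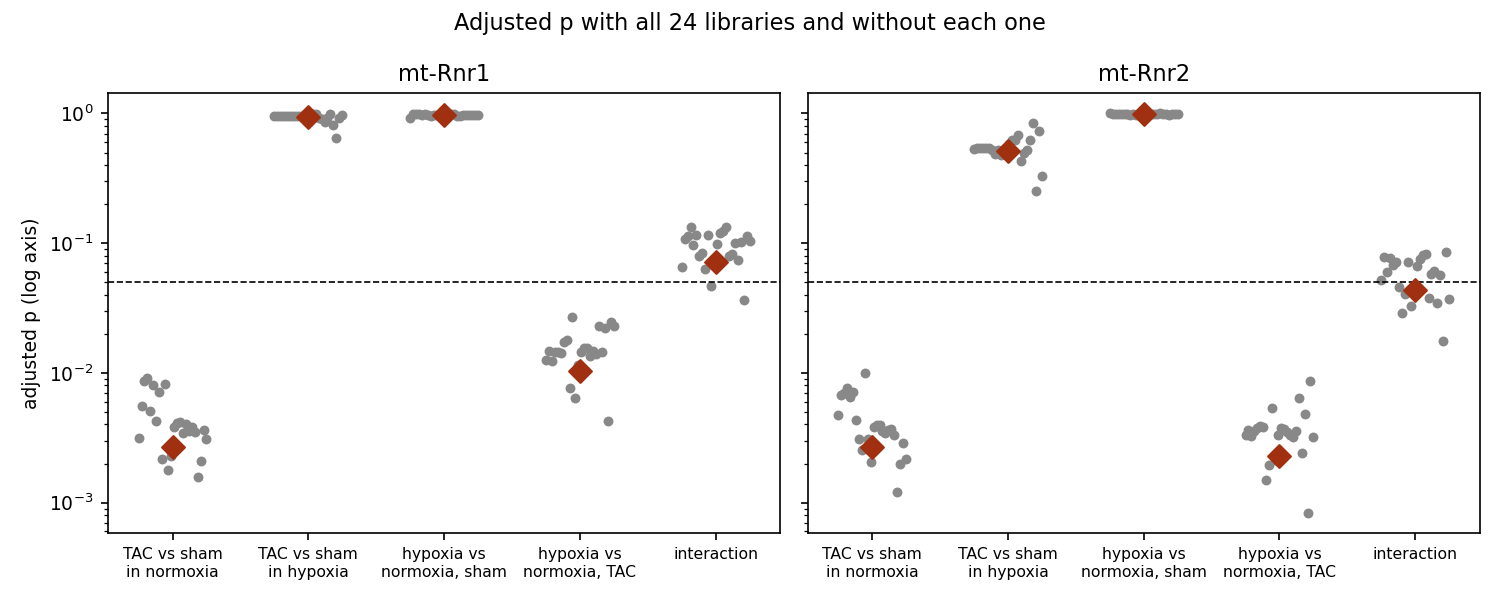
Adjusted p (log axis) of mt-Rnr1 and mt-Rnr2 in the 5 comparisons, with the diamond for all 24 libraries, each grey point for a fit without 1 library, and the dashed line at 0.05. The points of TAC against sham in normoxia and of hypoxia against normoxia after TAC all lie under the line, and those of the interaction lie on both sides of it.

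The rRNAs come from the same precursor and enter the ribosome in equal numbers, so their ratio was followed within each library. Per base of gene length, counts of mt-Rnr2 exceeded those of mt-Rnr1 by a ratio of 1.67 ± 0.174 in normoxia sham and 1.71 ± 0.297 in normoxia TAC libraries. The ratio was 1.56 ± 0.0850 in hypoxia sham and 1.42 ± 0.249 in hypoxia TAC libraries (SD, n = 6). It ran from 1.501 to 1.92, from 1.19 to 2.04, from 1.41 to 1.64 and from 1.08 to 1.85 in the same order, and all 4 groups overlapped. The ratio spread most within the TAC groups, where the lowest values were those of normoxia TAC 2 and hypoxia TAC 5.

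Levels of markers of cardiomyocytes and of other cells are given beside the rRNAs. The defining genes of heart muscle were abundant, and none of 12 cardiomyocyte markers was at 0 in all 24 libraries. In normoxia their summed level ran from 84872 to 95310 CPM after sham surgery and from 43192 to 95785 CPM after TAC. In hypoxia it ran from 86440 to 91997 CPM after sham surgery and from 67863 to 96902 CPM after TAC. In normoxia TAC against sham, 1 of 12 was called lower, where 10.6% of all genes were. It was the adult myosin Myh6, with a log2 change of -0.85 ± 0.12 (edgeR adjusted p = 0.000102). In hypoxia 2 of 12 were called lower, where 4.68% of all genes were. They were Ttn (-0.61 ± 0.09, edgeR adjusted p = 0.000967) and the calcium pump gene Atp2a2 (-0.55 ± 0.14, edgeR adjusted p = 0.0147).

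The marker counts that follow stand beside 16.8% of all genes called higher and 10.6% lower with TAC in normoxia, and 6.46% and 4.68% in hypoxia. Of 10 macrophage and monocyte markers 8 were called higher with TAC in normoxia and 1 in hypoxia. In normoxia their sum ran from 249.7 to 326 CPM after sham surgery and from 389 to 977 CPM after TAC. In hypoxia it ran from 332 to 405 CPM after sham surgery and from 264 to 753 CPM after TAC. Of 9 fibroblast markers 4 were called higher in normoxia and none in hypoxia. Their sum ran over 1179 to 1355, 1212 to 3955, 1434 to 1715 and 1328 to 3420 CPM, in the order normoxia sham, normoxia TAC, hypoxia sham and hypoxia TAC. Of 5 neutrophil markers 4 were tested and all 4 were called higher in normoxia and 2 in hypoxia, with sums of 0.911 to 3.57, 5.99 to 84.2, 2.04 to 8.19 and 3.55 to 35.8 CPM. Of 8 endothelial markers 3 were called lower with TAC in normoxia and 2 in hypoxia. Their sums ran over 809 to 898, 632 to 712, 973 to 1160 and 656 to 938 CPM. The 6 red cell markers summed to 642 to 1330, 434 to 4146, 1071 to 2241 and 1388 to 5502 CPM in that order. With TAC none of the 6 was called in normoxia and 1 was called higher in hypoxia. After TAC, hypoxia against normoxia gave 2 of the 10 macrophage markers lower, 4 of the 8 endothelial markers higher and 1 of the 6 red cell markers higher. All genes gave 4.66% higher and 6.41% lower in that comparison. The part of these cells in the rRNA levels was not tested. AY036118, the 1 tested row of 6 listed for cytosolic rRNA, was not called in any comparison. Its log2 change with TAC was 0.65 in normoxia and -0.51 in hypoxia. For hypoxia against normoxia it was 0.63 after sham surgery and -0.54 after TAC. The 4 listed nuclear retained RNAs had mean sums of 9786 ± 596, 9648 ± 2762, 9317 ± 603 and 7675 ± 1441 CPM (SD, n = 6), in the same group order. A part of RNA quality was not tested.

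Set against the cardiomyocyte markers of the same library, counts of both rRNAs gave a ratio of 0.365 ± 0.0436 in normoxia sham and 0.692 ± 0.264 in normoxia TAC. The ratio was 0.360 ± 0.0379 in hypoxia sham and 0.379 ± 0.0759 in hypoxia TAC (SD, n = 6). The mean of normoxia TAC was raised by normoxia TAC 2, at 1.18, and the median of that group was 0.611. The markers in the ratio include Myh6, which was itself lower with TAC in normoxia (log2 change -0.85). The lowest normoxia TAC library (0.478) lay above the highest normoxia sham library (0.423), while the highest hypoxia TAC library (0.515) reached into the normoxia TAC range. Set against the summed nuclear-encoded subunits of oxidative phosphorylation, the ratio was 0.404 ± 0.0477 after sham surgery and 0.628 ± 0.135 after TAC in normoxia. In hypoxia it was 0.413 ± 0.0487 after sham surgery and 0.387 ± 0.0424 after TAC. On this scale every normoxia TAC library (0.507 or more) lay above every library of the other 3 groups (at most 0.468).

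**Figure D3:**
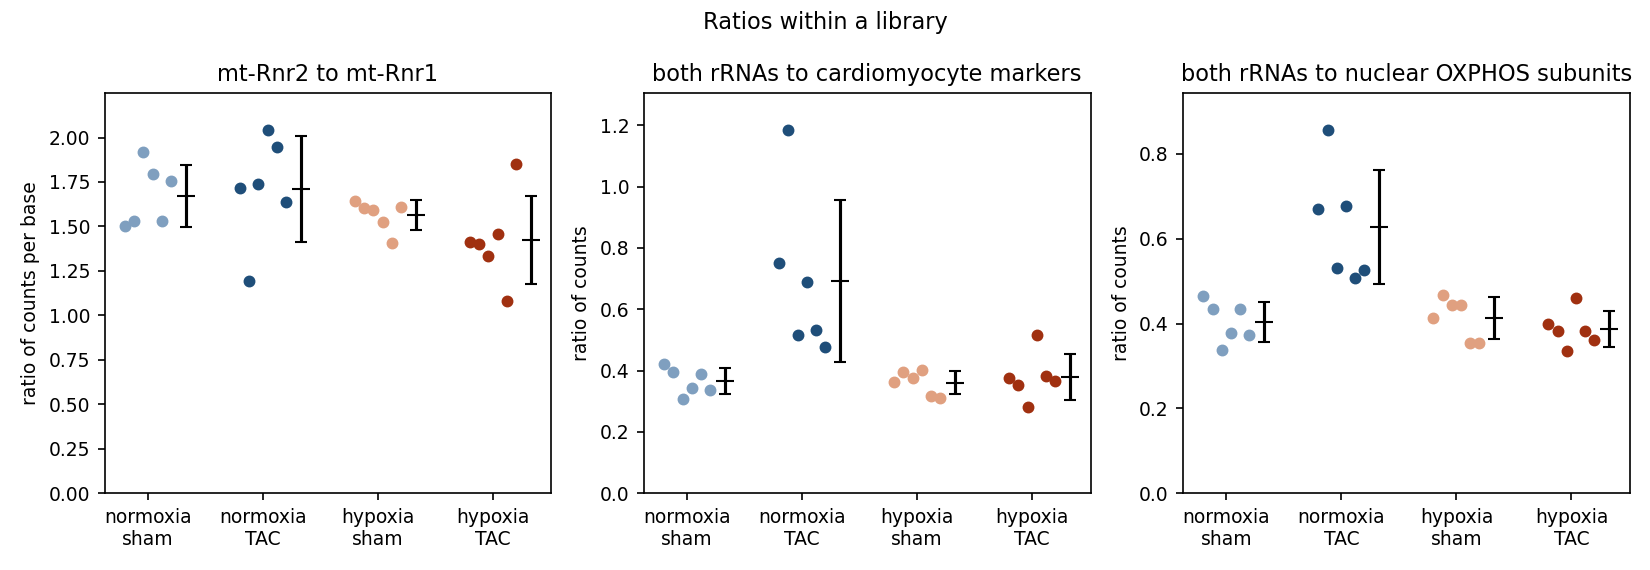
Ratios within each library by group, with each point a library and the bar beside it the mean and SD of 6. The ratio of mt-Rnr2 to mt-Rnr1 per base overlaps in all groups, and both rRNAs against nuclear subunits of oxidative phosphorylation (OXPHOS) lie at 0.507 or more in normoxia TAC and at most 0.468 elsewhere.

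The companion tRNA rows held few counts, summing to 0.0374 ± 0.00966% of all counts in normoxia sham and 0.0454 ± 0.0147% in normoxia TAC libraries. They summed to 0.0457 ± 0.0118% in hypoxia sham and 0.0366 ± 0.00842% in hypoxia TAC libraries (SD, n = 6), and all 4 groups overlapped. The widest exact 95% interval of a library's summed share was 0.00300 percentage points. Of the 22 rows 15 passed the filter on low counts. Strand use in counting is not given in the sources used here, so reads of a tRNA row cannot be told apart from those of transcripts on the other strand.

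With TAC in normoxia 12 of the 15 tested tRNA rows had a positive change, and none was called (1 at an unadjusted p under 0.05, none by DESeq2). Their median change was 0.17, against 0.01 for all genes. With TAC in hypoxia none was called by edgeR, 4 had an unadjusted p under 0.05 and DESeq2 called 1, TrnL2. After sham surgery none was called and none had an unadjusted p under 0.05, and DESeq2 called none. After TAC, hypoxia against normoxia gave 14 negative changes of 15, a median of -0.33 against -0.02 for all genes, and 2 rows called lower, TrnL1 and TrnL2, where 6.41% of all genes were called lower. In the interaction none was called by edgeR or DESeq2, and 3 had an unadjusted p under 0.05.

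TrnL1 lies next to mt-Rnr2 on the same strand. Its lowest, median and highest CPM were 57.3, 61.1 and 76.4 in normoxia sham, and 58.8, 77.5 and 96.5 in normoxia TAC libraries. They were 45.4, 63.5 and 65.4 in hypoxia sham, and 40.9, 49.1 and 71.9 in hypoxia TAC libraries. After TAC, 5 of 6 hypoxia libraries lay below every normoxia library. The log2 change was -0.59 ± 0.14 (edgeR adjusted p = 0.0103), and with TAC in normoxia it was 0.29 ± 0.14 and did not pass (edgeR adjusted p = 0.118). Without the 3 libraries of low TMM factor the change after TAC was -0.43 and was not called (adjusted p = 0.0835). Per count of TrnL1 there were 375 ± 49.1 counts of mt-Rnr2 after sham surgery and 486 ± 62.3 after TAC in normoxia (SD, n = 6). In hypoxia there were 393 ± 22.4 and 407 ± 90.2.

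TrnL2 was counted 6 to 50 times per library. It was lower in hypoxia than in normoxia after TAC, at 1.05 ± 0.408 against 2.60 ± 1.25 CPM (SD, n = 6), a log2 change of -1.30 ± 0.40 (edgeR adjusted p = 0.0363), and the groups overlapped. That call was lost in 6 of the 24 fits without 1 library, those without normoxia TAC 1, 4 or 6 and those without hypoxia TAC 3, 5 or 6 (adjusted p up to 0.0899). All 6 hypoxia TAC libraries lay below all 6 hypoxia sham libraries (2.37 ± 0.599 CPM), a pattern shown by 3.36% of all genes (2.31% in the higher direction), and the change of -1.17 ± 0.40 missed the threshold (edgeR adjusted p = 0.0567). TrnW, the tryptophan tRNA, was the other row with groups apart. It ran from 5.36 to 7.25 CPM in hypoxia sham and from 7.38 to 11.8 CPM in normoxia sham libraries, with a change of -0.45 ± 0.30 that was not called (edgeR adjusted p = 0.770), where 2.23% of all genes were apart in that direction and 2.79% in the other.

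TrnQ was the most counted tRNA row and varied widely within groups. Its lowest, median and highest CPM were 17.1, 151 and 213 in normoxia sham, and 55.3, 256 and 418 in normoxia TAC libraries. They were 113, 231 and 404 in hypoxia sham, and 83.1, 158 and 293 in hypoxia TAC libraries. The lowest value was that of normoxia sham 1, with 208 counts against 1883 to 3014 in the other 5 of its group, and all groups overlapped. No change of TrnQ passed the test in any of the 5 comparisons. TrnQ is encoded on the opposite strand between TrnI, the isoleucine tRNA, and TrnM, the methionine tRNA, whose reads it could share. TrnM, TrnE (the glutamate tRNA) and TrnI had group means of 41.3 to 47.6, 21.6 to 37.2 and 29.3 to 33.6 CPM, and none was called in any comparison.

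**Figure D4:**
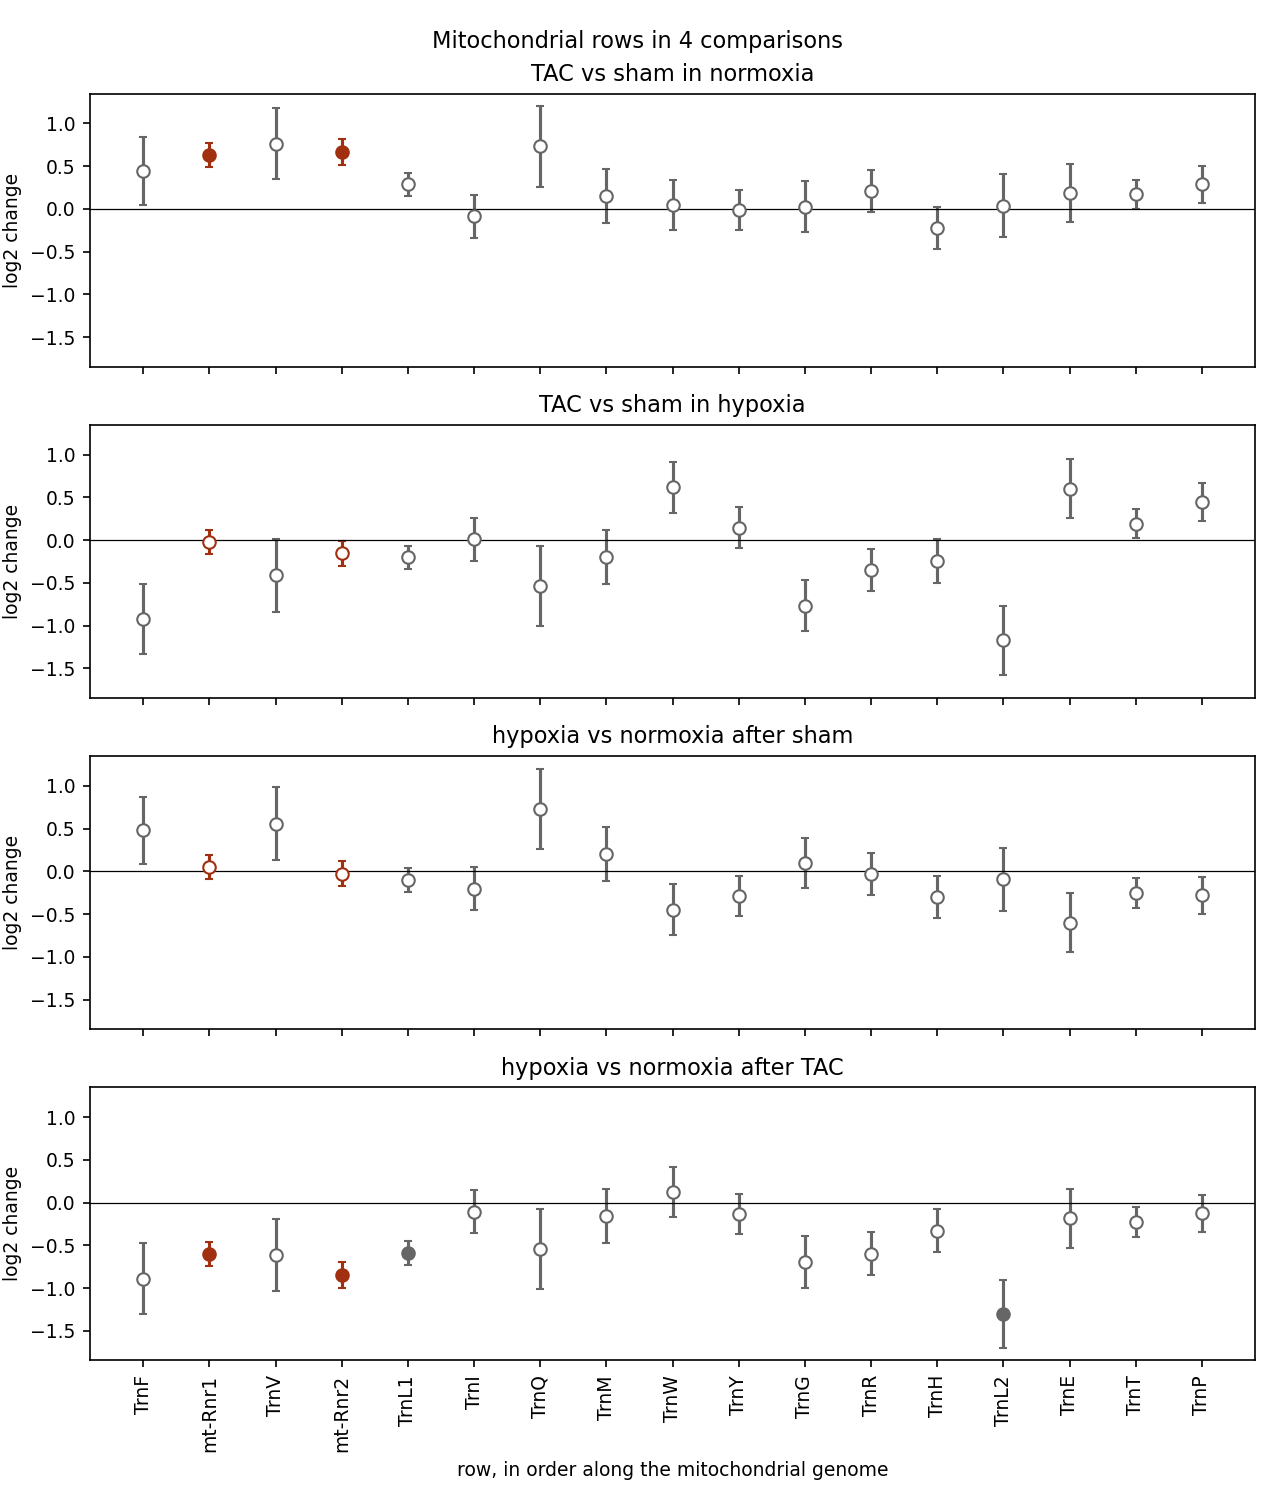
Log2 change with its standard error for both rRNAs (red) and the 15 tested tRNA rows (grey), in order along the mitochondrial genome, in 4 comparisons. Filled points are called, and the rows called after TAC in hypoxia against normoxia are mt-Rnr1, mt-Rnr2, TrnL1 and TrnL2.

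Nuclear genes that copy, transcribe, process and translate the mitochondrial genome were followed in 7 lists with 248 tested genes. With TAC in normoxia 23 of them were called higher and 14 lower, where all genes gave 16.8% and 10.6%. With TAC in hypoxia 5 were higher and 13 lower, where all genes gave 6.46% and 4.68%. After TAC 3 were higher and 26 lower in hypoxia than in normoxia, where all genes gave 4.66% and 6.41%. The shares of all genes apply to each list below. None was called after sham surgery in the fit of all libraries or by DESeq2. At an unadjusted p under 0.05 there were 9, against 1202 of all 15027 genes. The fit of the 12 sham libraries alone called 22 lower in hypoxia, where it called 1658 of all 14409 genes in either direction. In the interaction edgeR called none, and DESeq2 called 2 higher and 5 lower, where it called 916 of all 14442 genes. There 33 had an unadjusted p under 0.05 in edgeR, against 3171 of all 15027 genes. With library totals in place of TMM the split with TAC in normoxia turned to 7 higher and 37 lower, and after TAC it was 6 and 6. Over the fits without 1 library the genes called lower in hypoxia after TAC numbered 6 (without hypoxia TAC 1) to 51 (without normoxia TAC 2). With TAC in hypoxia those called lower numbered 3 (without hypoxia TAC 3) to 29 (without hypoxia TAC 4), and those called higher 2 (without hypoxia sham 6) to 9 (without normoxia TAC 2). With TAC in normoxia those called higher numbered 14 (without normoxia sham 2) to 38 (without normoxia TAC 2), and those called lower 8 (without normoxia TAC 4) to 20 (without normoxia TAC 1).

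Of 20 genes of transcription and DNA maintenance, none was called higher and 5 lower with TAC in normoxia, where 16.8% of all genes were higher and 10.6% lower. Without the libraries of low TMM factor the count called lower was 3. Their median change was -0.09, against 0.01 for all genes. Polrmt, the mitochondrial RNA polymerase, ran from 44.6 to 54.6 CPM (median 49.2) in normoxia sham and from 19.3 to 36.5 CPM (median 31.4) in normoxia TAC libraries. The groups did not overlap, as in 3.86% of all genes in the lower direction, and Polrmt fell by 0.72 ± 0.12 (edgeR adjusted p = 0.000397). Twnk, the helicase of mitochondrial DNA replication, changed by -0.33 ± 0.09 (edgeR adjusted p = 0.0105), and Polg2, a subunit of its polymerase, by -0.61 ± 0.18 (edgeR adjusted p = 0.0130). In hypoxia TAC lowered 2 of the 20, Tfam, which packages mitochondrial DNA and opens its promoters (-0.41 ± 0.13, edgeR adjusted p = 0.0399), and Mterf3 (-0.34 ± 0.11, edgeR adjusted p = 0.0390). After TAC, Tfam was lower in hypoxia (-0.39 ± 0.13, edgeR adjusted p = 0.0499) and Polg2 higher (0.54 ± 0.18, edgeR adjusted p = 0.0495). Both lie at the threshold, and with RLE size factors, with no filter or without the libraries of low TMM factor none of the 20 was called. The count lowered by TAC in hypoxia ran from 0 (without hypoxia sham 1) to 4 (without hypoxia TAC 4). In hypoxia Polrmt ran from 44.8 to 51.0 CPM in sham and from 31.3 to 47.9 CPM in TAC libraries, which overlapped. Without normoxia TAC 4 the count called lower in normoxia was 3.

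Of 22 genes of RNA processing, tailing and decay, 4 were higher and 2 lower with TAC in normoxia, shares near those of all genes (16.8% and 10.6%). The counts were 1 and 3 in hypoxia, and after TAC none was higher and 5 lower in hypoxia (0 and 2 without the libraries of low TMM factor, and 1 lower without hypoxia TAC 1). Trmt10c, a subunit of the enzyme that cuts the 5′ ends of tRNAs out of the precursor, ran from 49.8 to 56.9 CPM in normoxia sham and from 59.8 to 84.9 CPM in normoxia TAC libraries. It ran from 43.6 to 53.9 CPM in hypoxia sham and from 37.7 to 57.9 CPM in hypoxia TAC libraries. Every normoxia TAC library lay above all others. Of all genes, 5.04% had groups apart in the higher direction with TAC in normoxia, and 0.858% in the lower direction in hypoxia after TAC. Trmt10c changed by 0.37 ± 0.10 with TAC in normoxia (edgeR adjusted p = 0.00858) and by -0.57 ± 0.10 in hypoxia against normoxia after TAC (edgeR adjusted p = 0.00227). Fastkd2, which binds 16S rRNA and serves ribosome assembly, rose by 0.39 ± 0.10 with TAC in normoxia (edgeR adjusted p = 0.00752), and Lrpprc, which stabilises mitochondrial mRNAs, fell by 0.39 ± 0.10 (edgeR adjusted p = 0.00662). After TAC the changes of Pnpt1, which degrades RNA, and Mtpap, the mitochondrial poly(A) polymerase, were -0.35 ± 0.10 and -0.33 ± 0.09 in hypoxia (edgeR adjusted p = 0.0228 and 0.0236).

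Of 22 genes of rRNA modification and ribosome assembly, Fastkd2 was called higher and Mettl17 lower with TAC in normoxia. Mpv17l2, an assembly factor, was higher with TAC in hypoxia (0.52 ± 0.11, edgeR adjusted p = 0.00844) and higher in hypoxia than in normoxia after TAC (0.51 ± 0.11, edgeR adjusted p = 0.00783). Mrm3, which methylates 16S rRNA, was lower in that last comparison (-0.39 ± 0.12, edgeR adjusted p = 0.0309), as was Fastkd2 (-0.36 ± 0.10, edgeR adjusted p = 0.0259). Of 11 regulators of mitochondrial biogenesis 1 was lower with TAC in normoxia, the coactivator Ppargc1b (-0.64 ± 0.20, edgeR adjusted p = 0.0208), and 1 in hypoxia, Gabpb1 (-0.36 ± 0.11, edgeR adjusted p = 0.0325). Without the libraries of low TMM factor 0 of the 11 were called in either comparison. The count called lower ran from 0 to 2 when 1 library was left out, with 0 in normoxia without normoxia TAC 4 and 0 in hypoxia without hypoxia sham 2.

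The 78 proteins of the mitochondrial ribosome, the partners of both rRNAs, counted 12 genes higher and 1 lower with TAC in normoxia (15.4% and 1.28%, where all genes gave 16.8% and 10.6%). Their median change was 0.02, against 0.01 for all genes. Mrpl33 of the large subunit ran from 120 to 137 CPM in normoxia sham and from 163 to 259 CPM in normoxia TAC libraries, with no overlap (0.71 ± 0.10, edgeR adjusted p = 0.000132). Groups apart in the higher direction made up 5.04% of all genes there. In hypoxia Mrpl33 ran from 112 to 147 CPM in sham and from 118 to 168 CPM in TAC libraries, which overlapped. Mrps18c of the small subunit rose by 0.61 ± 0.08 (edgeR adjusted p = 9.62e-05) and Mrpl20 by 0.58 ± 0.08 (edgeR adjusted p = 0.000122) in normoxia. After TAC, 14 of the 78 were lower in hypoxia and none higher, a median change of -0.17 against -0.02 for all genes. Among them were Mrps18c (-0.43 ± 0.08, edgeR adjusted p = 0.00296), Mrpl33 (-0.53 ± 0.10, edgeR adjusted p = 0.00387) and Mrps15 (-0.39 ± 0.10, edgeR adjusted p = 0.0173). That count was 7 without the libraries of low TMM factor, 3 with library totals, 3 without hypoxia TAC 1 and 21 without normoxia TAC 2. With library totals the split with TAC in normoxia was 6 higher and 8 lower.

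Of 20 mitochondrial aminoacyl-tRNA synthetases and partners, which load the tRNAs, 1 was higher and 3 lower with TAC in normoxia and 3 were lower in hypoxia, where 16.8% and 10.6% of all genes were called in normoxia and 4.68% lower in hypoxia. The hypoxia count ran from 1 (without hypoxia TAC 3) to 5 (without normoxia TAC 2). Vars2, for valine, changed by -0.73 ± 0.16 in normoxia (edgeR adjusted p = 0.00213), and Gatc, a subunit of the amidotransferase that makes glutamine tRNA, by -0.32 ± 0.07 there (edgeR adjusted p = 0.00173) and by -0.27 ± 0.07 in hypoxia (edgeR adjusted p = 0.0137). Of 79 nuclear-encoded subunits of oxidative phosphorylation 6 were higher and 1 lower with TAC in normoxia (7.59% and 1.27%, against 16.8% and 10.6% of all genes), among them Ndufb11 of complex I (0.33 ± 0.10, edgeR adjusted p = 0.0179) and Cox6c of complex IV (0.49 ± 0.16, edgeR adjusted p = 0.0257). That count hung on single libraries. It was 0 higher without normoxia TAC 4, 16 higher without normoxia TAC 2, and 0 higher and 7 lower without the 3 libraries of low TMM factor. With TAC in hypoxia none of the 79 was called by edgeR or DESeq2 (3 at an unadjusted p under 0.05 in edgeR), and 5 were lower in hypoxia than in normoxia after TAC, where 21 were lower without normoxia TAC 2 and 2 without normoxia TAC 1.

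**Figure D5:**
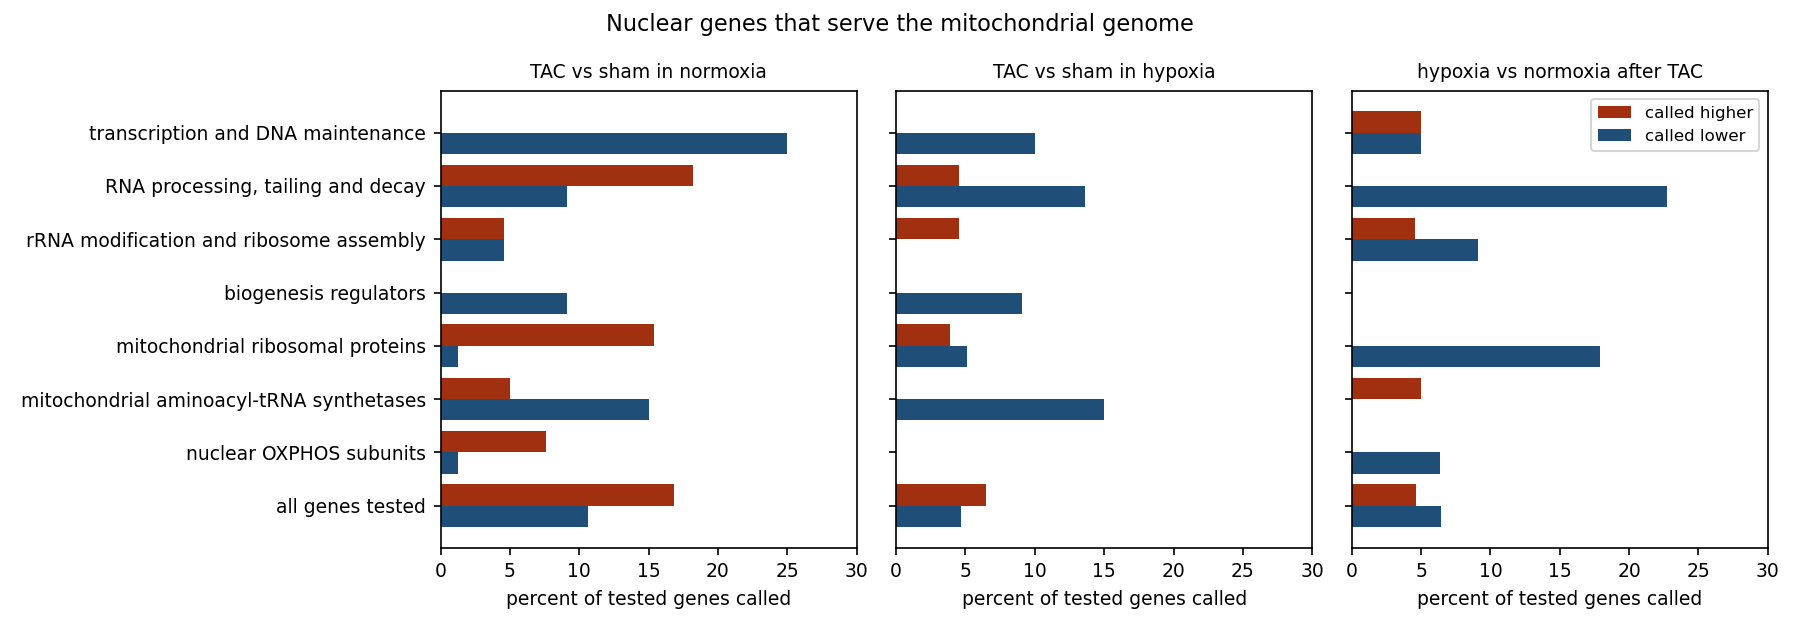
Percent of tested genes called higher (red) and lower (blue) in each nuclear list and over all genes, in 3 comparisons. With TAC in normoxia 15.4% of mitochondrial ribosomal proteins were called higher against 16.8% of all genes, and after TAC 17.9% were called lower in hypoxia against 6.41% of all genes.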

How the data were processed

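The deposited table holds raw counts per gene symbol and library, with no normalization by the authors. The submitters' processing notes list genome build GRCm39 and, as tools, STAR 2.7.3a, featureCounts (Subread 2.0.0) and bcl2fastq 2.20.0.422. The settings, the annotation and the strand used are not given in the sources used here. Per the labels' protocols, RNA was isolated with a NucleoSpin kit and 100 ng went into a NEBNext low-input library. Libraries were joined to samples by the library number in the descriptions. No coordinates are printed, because the reference at hand is GRCm38. Its RefSeq symbols match 39350 of 40840 rows (96.4%).

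The filter filterByExpr (minimum count 10, minimum total 15) kept 15027 genes with 99.9% of counts. The fit used TMM scaling and edgeR 4.0.16 under R 4.3.3 (robust quasi-likelihood F test, 1 mean per group, 24 libraries, 20 residual degrees of freedom, biological coefficient of variation 0.241), with 5 contrasts and p-values adjusted over all genes. The standard error is the change divided by the root of F. The script was tested on simulated data. Shares and ratios are descriptions without a test. Alternatives were RLE size factors, library totals, scaling without mitochondrial rows, no filter, the compared groups alone, a replicate block, DESeq2 1.42.0 and leaving out each library.

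The members and gene lists were chosen with earlier results of these data known. Named genes are both rRNAs, tRNA rows called in any contrast or among the 5 highest in mean CPM, and in each list and contrast the called genes with the 3 smallest p-values, of which a part is printed. TrnW was named after its values were seen. The results planned for mitochondrial mRNAs were not run. Those genes were looked for under mt- and, as the tRNA rows were, under the RefSeq symbols of the mitochondrial chromosome. No row was found under either, and they were not analysed here.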

Additional observations from a re-analysis of the deposited data

Results flagged for a closer look

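The TAC response of mt-Rnr2 differed between oxygen conditions in edgeR's interaction test, by a log2 difference of -0.82 (adjusted p = 0.0434), with a rise of 0.66 in normoxia and a change of -0.15 in hypoxia. That call lay close to the threshold. It was lost in 15 of the 24 edgeR fits without 1 library (adjusted p up to 0.0849) and in edgeR with no filter (adjusted p = 0.0597). In the same edgeR test mt-Rnr1 did not pass (adjusted p = 0.0716).

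Single libraries stood far from the other 5 of their group in 6 of 72 group and quantity pairs examined, where chance gives about 1 in 20. For the ratio of both rRNAs to the summed tRNA rows, normoxia sham 1 was highest of its group at 178, and normoxia TAC 2 at 229. Both are the libraries with the lowest TrnQ level of their groups (17.1 and 55.3 CPM). For TrnL1, normoxia sham 3 stood at 76.4 CPM and hypoxia TAC 4 at 71.9 CPM, each highest of its group. For TrnE, hypoxia sham 6 stood at 40.04 CPM and hypoxia TAC 6 at 75.7 CPM.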

How the results depend on the processing

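Of 1718 values recomputed under alternatives, 1595 kept their direction and their side of the threshold, or stayed within the limits set for counts and shares. Of the 1718, 1272 were changes of single rows. Uncalled changes that stayed uncalled with the same sign counted as kept, so the tally does not measure how stable the calls were. Both rRNAs stayed called for TAC against sham in normoxia under every alternative run. In hypoxia against normoxia after TAC they stayed called except in the fit of the 12 TAC libraries alone, which called 0. For the interaction, the number of rRNAs called was 1 with all libraries, 0 with no filter, 2 by DESeq2 and 0 to 2 when 1 library was left out. Of the tRNA rows, TAC against sham in hypoxia gave 1 called higher with no filter. In the fit of those groups alone and by DESeq2 it gave 1 called lower, TrnL2. When 1 library was left out, 0 to 2 were called, all lower. After sham surgery, 1 was called in the fit of the sham groups alone. In hypoxia against normoxia after TAC, 1 was called with library totals, 0 in the fit of those groups alone, 1 with the replicate block, 0 without the 3 libraries of low TMM factor, and 1 to 5 when 1 library was left out (5 without normoxia TAC 2). The causes were not tested.

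Directions turned only for changes that were not called. Without the libraries of low TMM factor the log2 change was 0.0094 for TrnQ (hypoxia against normoxia after TAC), -0.0263 for TrnM and -0.00073 for TrnL2 (TAC in normoxia), -0.24 for TrnE and -0.20 for TrnI (interaction), and -0.34 for TrnI (TAC in hypoxia). With library totals it was -0.0667 for TrnI (TAC in hypoxia) and -0.0836 for TrnL2 (TAC in normoxia), and with the replicate block -0.0796 for TrnI (TAC in hypoxia). The difference of the summed rRNA share between sham groups was -0.0124 points on TMM-scaled CPM, and -0.0590 to 0.108 when 1 library was left out. Leaving out 1 library moved mt-Rnr1 from -0.10 to 0.0675 (TAC in hypoxia) and from -0.0016 to 0.11 (sham groups), and mt-Rnr2 from -0.0641 to 0.0132 (sham groups). It moved TrnM from -0.62 to 0.0228 (hypoxia against normoxia after TAC). It moved TrnE from -0.0125 to 0.31 (TAC in normoxia), from -0.62 to 0.0168 (hypoxia against normoxia after TAC) and from -0.0132 to 0.69 (interaction). It moved TrnI from -0.20 to 0.0209 (TAC in normoxia), from -0.34 to 0.16 (TAC in hypoxia), from -0.46 to 0.0474 (hypoxia against normoxia after TAC) and from -0.26 to 0.25 (interaction). It moved TrnL2 from -0.17 to 0.25 (TAC in normoxia) and from -0.30 to 0.10 (sham groups).

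Replicate numbers were not taken to pair the samples. Of 6 pairs, 0, 0, 0 and 4 had correlated deviations over 0.1 in the 4 comparisons of groups. A sample matched its own number best in 0, 2, 0 and 3. The last of these comparisons, hypoxia against normoxia after TAC, was mixed, with correlations from -0.31 to 0.35. With the replicate block the rRNA calls did not change (interaction adjusted p 0.0334 for mt-Rnr2 and 0.0542 for mt-Rnr1), and TrnL2 after TAC was not called (adjusted p = 0.0665). Low counts limit the tRNA rows, of which 7 did not pass the filter, more than the rRNAs, and the cause of these low counts was not tested.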
